A study of Mus musculus with 9 samples.

Results

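The liver clears drugs by moving them through hepatocytes from blood to bile, and 9 genes that encode transporters for these steps were read from mRNA sequencing of mouse liver. The genes were fixed by name, and all 9 had a row among the 24341 rows of the deposited expression table and passed the filter on low values that left 13807 genes for testing. They comprised 4 uptake genes (Slco1a1, Slco1a4, Slco1b2, and Slco2b1) and 5 efflux genes (Abcc2, Abcb1a, Abcg2, Abcc3, and Abcc4). The data came from bulk liver of WT C57BL/6 mice taken 48 hours after treatment. Anti-CD40 was given to 3 mice (mice 2, 5, and 9) and PBS to 6 control mice (mice 3, 4, 7, 8, 11, and 12). Anti-CD40 was the agonist antibody of clone FGK45 that activates the TNF receptor family member CD40. Per the study's general methods, mice were 8 to 12 weeks old and matched for sex, and anti-CD40 mice whose blood B cells did not drop were removed from analysis. The study compared the groups to learn what anti-CD40 does to the liver.

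Organic anion transporting polypeptides, encoded by Slco genes, sit mainly on the sinusoidal membrane of hepatocytes and carry bile acids, conjugated steroids, thyroid hormones, and many drugs from blood into the cell. ATP-binding cassette transporters pump drugs and their conjugates out, either across the canalicular membrane into bile (ABCC2, ABCB1A, and ABCG2) or back across the basolateral membrane into blood (ABCC3 and ABCC4). Nuclear receptors that sense drugs and bile acids, among them PXR, CAR, and FXR, regulate several of these genes together with the enzymes of drug metabolism.

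Levels are given in FPKM, which counts fragments relative to transcript length and to the mapped reads of the library. Libraries were made from the 3′ end of transcripts, where dividing by length does not make genes comparable, so levels of single genes were compared only within a gene. Sums over a list and shares of all FPKM, where given, add genes on this scale. Such sums follow mostly the genes of highest FPKM. A gene was called when limma on log2(FPKM + 0.1) gave a Benjamini-Hochberg adjusted p under 0.05 over the 13807 genes. Of these, 2990 (21.7%) were called lower after anti-CD40 and 3240 (23.5%) were called higher, and in 5848 (42.4%) the values of the 2 groups did not overlap. The counts of transporters below are read against these shares. In bulk tissue, fewer hepatocytes and less mRNA per hepatocyte cannot be told apart.

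All 4 uptake genes were lower after anti-CD40, and none of the 5 efflux genes was called in either direction. The groups did not overlap for any of the 4 uptake genes and overlapped for all 5 efflux genes. The median log2 fold change was -2.12 over the uptake genes and -0.13 over the efflux genes, beside 0.0056 over all genes tested. The plot of FPKM in each mouse shows this split.

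**Figure D1:**
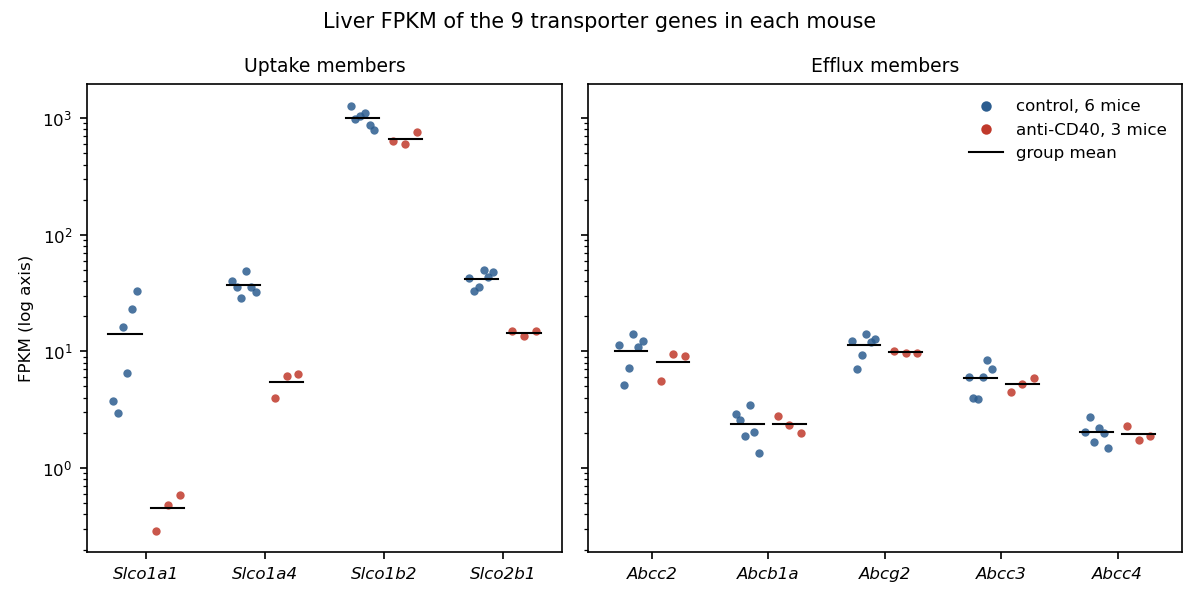
FPKM (log axis) of the 4 uptake genes (left) and 5 efflux genes (right) in each of 6 control and 3 anti-CD40 mice, with black lines at the group means. The anti-CD40 points lie below every control point for the 4 uptake genes, from 0.288 to 0.588 against 2.96 to 32.8 for Slco1a1, and within or across the control points for the 5 efflux genes.

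Slco1a1, Slco1a4, and Slco1b2 lie near each other on chromosome 6, and they are shown first because their log2 fold changes spanned the range of the uptake genes, from -4.21 to -0.60. Slco1b2 was listed at chr6:141629518-141686635 on the plus strand, Slco1a4 at chr6:141805440-141856171 on the minus strand, and Slco1a1 at chr6:141907281-141946962 on the minus strand (mm10, the GRCm38 assembly). The 250 bases upstream of a RefSeq start site of each gene (GRCm38.p6) are printed 5′ to 3′ along the gene's strand, with matches to the 5 motifs searched in capitals. The motifs were AGGTCA (nuclear receptors), TTGCNNAA (C/EBP), TGACNNNGC (the core of an antioxidant response element), TTCNNNGAA (STAT), and GGGACTTTC (NF-kB), each on both strands. Matches to AGGTCA on the other strand can share letters with TGACNNNGC.
Slco1b2, chr6:141629268-141629517, plus strand: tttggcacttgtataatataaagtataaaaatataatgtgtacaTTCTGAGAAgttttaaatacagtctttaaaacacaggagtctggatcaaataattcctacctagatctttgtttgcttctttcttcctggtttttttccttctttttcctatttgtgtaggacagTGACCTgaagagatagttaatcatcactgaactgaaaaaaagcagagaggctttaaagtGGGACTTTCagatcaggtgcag
Slco1a4, chr6:141856221-141856470, minus strand: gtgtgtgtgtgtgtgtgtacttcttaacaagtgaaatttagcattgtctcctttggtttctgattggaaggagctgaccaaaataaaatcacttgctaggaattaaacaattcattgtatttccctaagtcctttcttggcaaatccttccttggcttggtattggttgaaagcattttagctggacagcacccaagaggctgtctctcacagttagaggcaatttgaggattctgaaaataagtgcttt
Slco1a1, chr6:141946963-141947212, minus strand: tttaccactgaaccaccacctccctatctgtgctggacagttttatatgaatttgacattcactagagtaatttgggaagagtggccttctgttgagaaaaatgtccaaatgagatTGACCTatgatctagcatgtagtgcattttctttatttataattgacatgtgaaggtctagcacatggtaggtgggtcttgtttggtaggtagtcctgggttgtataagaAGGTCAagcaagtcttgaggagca

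Slco1b2 held a STAT match beginning 206 bases before the start site (-206), a nuclear receptor match at -81, and an NF-kB match at -22. Slco1a1 held nuclear receptor matches at -134 and -24. Slco1a4 had no match, and its RefSeq start site lies outside the gene as listed in the table. Over 32851 RefSeq windows of the same length, the share with a match was 0.289% for GGGACTTTC, 7.02% for TTCNNNGAA, 9.56% for TTGCNNAA, 10.2% for TGACNNNGC, and 14% for AGGTCA. Windows were found for 8 of the 9 genes and began at the listed gene end for 6. The window at the listed end of Slco2b1 and of Abcg2 had no match. At other RefSeq start sites of these genes, a Slco2b1 window held a STAT match and both Abcg2 windows held nuclear receptor matches. Abcc2 held an antioxidant response element core at -98 and a nuclear receptor match at -49, and Abcc4 held a C/EBP match at -233 and an antioxidant response element core at -25, with another such core in the window of its other start site. A match describes these letters only.

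Slco1a1 encodes OATP1A1, a sinusoidal carrier of sulfated and glucuronidated steroids and of many drugs. Treated mice 2, 5, and 9 had FPKM of 0.288, 0.484, and 0.588. Control mice 3, 4, 7, 8, 11, and 12 had 3.77, 2.96, 16.1, 6.57, 23.2, and 32.8. Every anti-CD40 value was below every control value, although the control mice themselves spread over 11.1-fold. The mean of 0.453 ± 0.153 (SD, n = 3) with anti-CD40 was 3.19% of the control mean of 14.2 ± 12.0 (SD, n = 6). The log2 fold change was -4.21 (SE 0.72, limma adjusted p = 8.53e-04), and only 31 of the 13807 genes had a lower one. The value depends on the constant added before the logarithm, and was -2.95 with a constant of 1. The smallest whole numbers of reads that fit the FPKM of Slco1a1, to within 0.0771 of a read, were 24, 38, and 43 with anti-CD40 against 230 to 2223 without it.

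Slco1a4 encodes OATP1A4, which also carries bile acids and cardiac glycosides. In the same order of mice, its FPKM was 3.95, 6.12, and 6.46 with anti-CD40 against 39.7, 35.4, 28.6, 48.9, 35.9, and 32.1 in the controls. The groups were far apart and the control mice were close to each other, with the highest 1.71-fold above the lowest. The mean fell from 36.8 ± 7.05 (SD, n = 6) to 5.51 ± 1.36 (SD, n = 3), with a log2 fold change of -2.73 (SE 0.20, limma adjusted p = 3.34e-06).

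Slco2b1, at chr7:99657804-99711340, encodes OATP2B1, which carries steroid sulfates and statins in liver and gut. Its FPKM was 15, 13.5, and 14.9 after anti-CD40 and 42.2, 33.1, 35.8, 49.9, 43.0, and 47.7 in control mice. Each group was narrow, and no anti-CD40 value reached the lowest control value. The log2 fold change was -1.52 (SE 0.14, limma adjusted p = 1.64e-05), and the mean was 34.5% of control.

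Slco1b2 encodes OATP1B2, the liver carrier of bilirubin, bile acids, and several hepatotoxins, and the counterpart of human OATP1B1 and OATP1B3. Its FPKM was 633, 594, and 754 after anti-CD40 and 1275, 976, 1052, 1103, 873, and 789 in control mice. The groups did not overlap, but the highest anti-CD40 mouse, mouse 9, came close to the lowest control mouse, mouse 12. The decrease was the smallest of the 4, with a mean of 660 ± 83.8 (SD, n = 3) against 1011 ± 173 (SD, n = 6) and a log2 fold change of -0.60 (SE 0.16, 95% interval -0.96 to -0.25, limma adjusted p = 0.0109). Leaving out anti-CD40 mouse 5 removed this call (-0.53, limma adjusted p = 0.0542). Mouse 5 had the lowest Slco1b2 value, 594 FPKM. The 10 pancreas markers listed summed to 1139.5 FPKM in that mouse, against 28 and 34.0 in the other treated mice. In control mice they summed to 71.2 to 196 FPKM. Whether pancreas tissue bears on the call was not tested. The call was also lost under quantile normalization (-0.10, limma adjusted p = 0.602) and with the Saa genes removed and each mouse rescaled (-0.24, limma adjusted p = 0.261).

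The acute phase genes Saa1, Saa2, and Saa3 held 25.4% to 25.9% of all FPKM with anti-CD40 and 0.0449% to 0.380% without it. Leaving them out and rescaling moved the median over all genes to 0.35 and changed the split of calls from 3240 higher and 2990 lower to 5635 higher and 1647 lower. Relative to that median, the uptake genes stood at -4.24 (Slco1a1), -2.72 (Slco1a4), -1.5 (Slco2b1), and -0.59 (Slco1b2). Rescaling shifts all genes of a mouse alike, apart from the added constant. These values are therefore close to those on the deposited scale by construction and are no check on scaling. Under quantile normalization, which does not shift all genes alike, the values relative to its median were -4.39 (Slco1a1), -2.62 (Slco1a4), -1.30 (Slco2b1), and -0.013 (Slco1b2). Slco1a1, Slco1a4, and Slco2b1 were called lower under all 20 alternative settings, and Slco1b2 under 16 of 20. In the exact permutation test over the 84 ways to take 3 of 9 mice (2-sided), each of the 4 uptake genes gave p = 0.0238. This is the smallest p this design allows. Any gene whose groups do not overlap gives it, which held for 42.4% of the genes tested, so it adds nothing to the lack of overlap.

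The efflux genes were read by membrane. Of the canalicular genes, Abcc2 (chr19:43782308-43838218) encodes MRP2, which exports conjugated bilirubin and drug conjugates into bile. Its FPKM was 5.60, 9.50, and 9.17 after anti-CD40 and 11.3, 5.15, 7.24, 14.1, 10.8, and 12.2 in control mice. All 3 anti-CD40 values lay within the control range, and the lowest value of all was in control mouse 4. The log2 fold change was -0.28 (SE 0.31, 95% interval -0.97 to 0.40, limma adjusted p = 0.481).

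Abcg2 (chr6:58596672-58692451) encodes BCRP, which exports sulfated compounds and many anticancer drugs. Its FPKM was 10.1, 9.61, and 9.75 after anti-CD40 and 12.3, 7.08, 9.36, 14.2, 12.1, and 12.7 in control mice. The anti-CD40 mice were tightly grouped inside the control range. The log2 fold change was -0.16 (SE 0.20, 95% interval -0.61 to 0.28, limma adjusted p = 0.532).

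Abcb1a (chr5:8660092-8748570) encodes 1 of the 2 mouse P-glycoproteins, pumps for bulky hydrophobic drugs. Its FPKM was 2.79, 2.36, and 1.98 after anti-CD40 and 2.92, 2.58, 1.89, 3.46, 2.04, and 1.35 in control mice. The means were 2.38 and 2.37, and the groups overlapped fully. The log2 fold change was 0.05 (SE 0.26, 95% interval -0.53 to 0.64, limma adjusted p = 0.891).

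The basolateral pumps Abcc3 and Abcc4 return conjugates and bile acids to blood. Abcc3 (chr11:94343295-94392976, MRP3) had FPKM of 4.52, 5.21, and 5.90 after anti-CD40 and 6.08, 3.96, 3.94, 6.01, 8.45, and 7.05 in control mice. Abcc4 (chr14:118482692-118706219, MRP4) had FPKM of 2.28, 1.74, and 1.89 after anti-CD40 and 2.03, 2.71, 1.68, 2.20, 2.01, and 1.5 in control mice. For both genes the anti-CD40 values lay inside the control range. The log2 fold change was -0.13 for Abcc3 (95% interval -0.67 to 0.40, limma adjusted p = 0.679) and -0.02 for Abcc4 (95% interval -0.44 to 0.39, limma adjusted p = 0.936). In the table, the position of Abcc4 is shared with Mir6391, which was at the floor of 0.01 in all 9 mice.

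No efflux gene was called under any of the 20 alternatives, and their exact permutation p (2-sided) ranged from 0.429 to 0.929. The sign of the efflux values depended on scaling, and Abcc2, Abcg2, Abcc3, and Abcc4 turned from below 0 to 0.079, 0.20, 0.23, and 0.33 with the Saa genes removed and each mouse rescaled, all below the shift of 0.35 in the median of all genes, and Abcb1a turned to -0.16 under quantile normalization. On the deposited scale a decrease as large as that of Slco2b1 lay outside the interval of each efflux gene, whereas one as large as that of Slco1b2 lay inside the intervals of Abcc2, Abcc3, and Abcg2. The plot of fold changes places the 9 genes beside the other transporters.

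**Figure D2:**
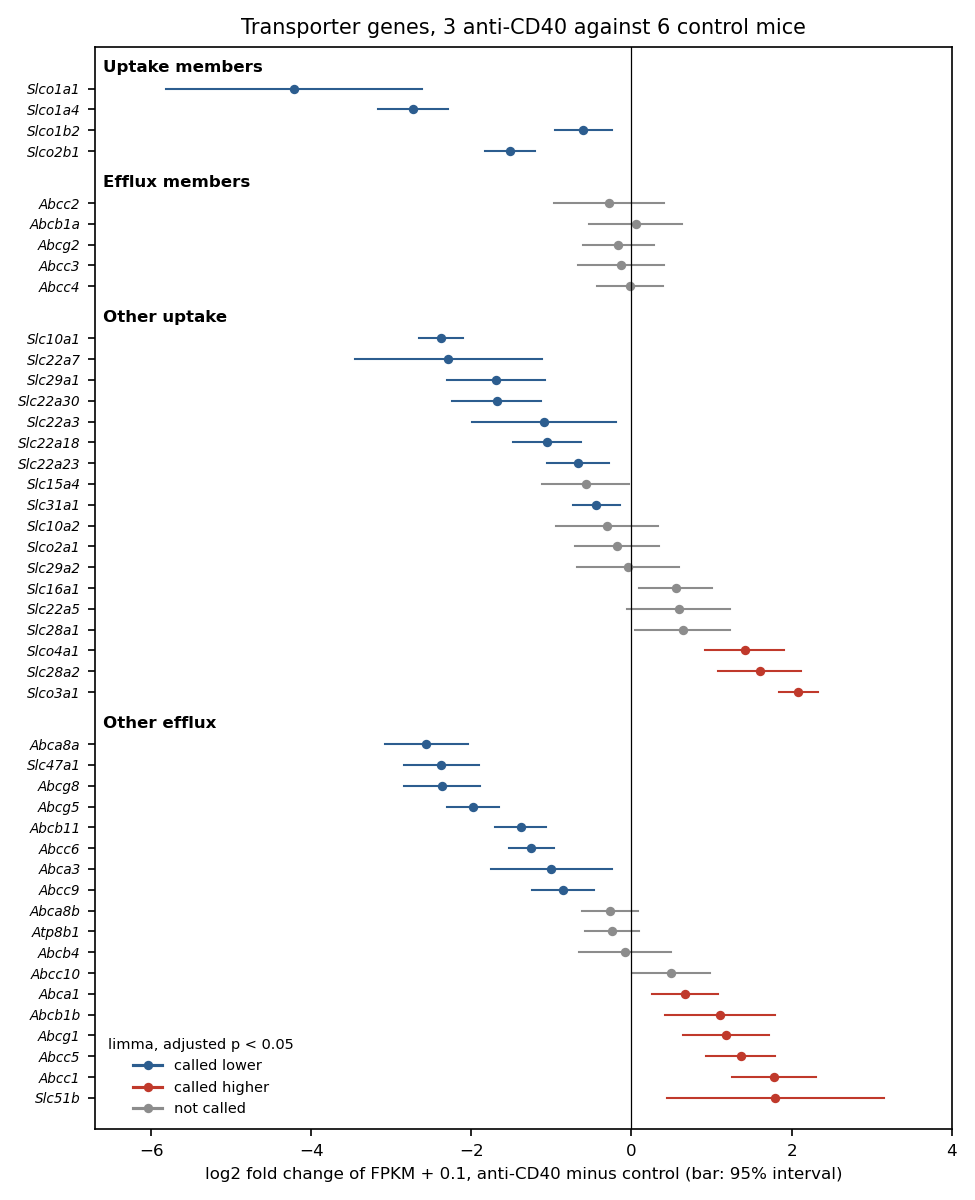
Log2 fold change of FPKM + 0.1, anti-CD40 minus control, for the 9 genes and for 18 of the 19 other uptake and all 18 other efflux transporters tested, as points with 95% intervals from limma, coloured by call. The 4 uptake genes lie at -4.21 to -0.60 and the 5 efflux genes around 0 (each changes sign under some scaling), while other efflux transporters lie on both sides from -2.56 to 1.80.

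Whether the uptake and efflux genes differed in their response was tested within each mouse, as the difference in log2(FPKM + 0.1) between 2 genes, which rescaling a mouse leaves as it is apart from the added constant. Over all 20 pairs of 1 uptake and 1 efflux gene, a set chosen after the values were seen, the groups did not overlap in 15. These were the 15 pairs with Slco1a1, Slco1a4, or Slco2b1, each with p = 0.0238 in the exact permutation test and a Benjamini-Hochberg adjusted p of 0.0317 over the 20 pairs. The 15 pairs reuse uptake genes already seen to separate the groups, on the same mice. Their p-values are not independent, and the adjusted value adds no support for a different response. The sizes of the differences are given as a description. The change of the efflux gene exceeded that of Slco1a1 by 3.93 to 4.26, that of Slco1a4 by 2.44 to 2.78, and that of Slco2b1 by 1.23 to 1.57 on the log2 scale. The 5 pairs with Slco1b2 all overlapped, with differences of 0.32 to 0.66 and adjusted exact permutation p of 0.0560 to 0.452. A different response of Slco1b2 and the efflux genes was thus not shown.

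Another 6 pairs compared related genes, with exact permutation tests (2-sided) adjusted over the 6 and intervals from inverting the test. The change of Slco1b2 exceeded that of Slco1a1 by 3.61 (interval 1.68 to 5.5, groups not overlapping, exact p = 0.0238, adjusted p = 0.143). The value for Slco1a4 against Slco1a1 was 1.48 (interval -0.14 to 3.4, exact p = 0.190, adjusted p = 0.381). The 6 control mice ran from -0.03 to 3.54 in this last difference and the 3 anti-CD40 mice from 3.25 to 3.41. The differences among the MRP genes were 0.15 for Abcc3 against Abcc2 (interval -0.46 to 0.58), 0.26 for Abcc4 against Abcc2 (-1.3 to 1.36), and 0.11 for Abcc4 against Abcc3 (-1.0 to 1.04), with exact p of 0.476 to 0.762. None of the 6 passed the adjusted threshold, which a single pair could not do in this design, since the smallest exact p of 0.0238 becomes 0.143 over 6 pairs.

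**Figure D3:**
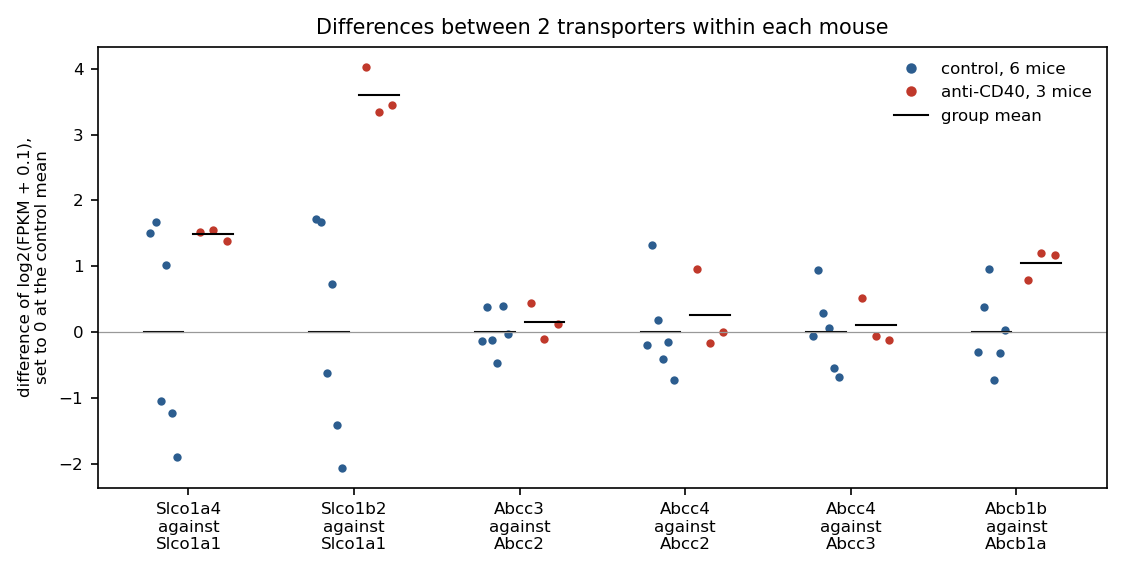
Difference of log2(FPKM + 0.1) between 2 transporters in each mouse, set to 0 at the control mean of each pair, for 6 control and 3 anti-CD40 mice with group means as black lines. Only Slco1b2 against Slco1a1 separates the groups, with a mean change of 3.61, and the MRP pairs stay near 0 at 0.11 to 0.26.

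The sixth pair set the P-glycoprotein genes side by side. Abcb1b, the copy next to Abcb1a on chromosome 5, had FPKM of 0.828, 0.949, and 0.771 after anti-CD40 and 0.354, 0.55, 0.617, 0.297, 0.217, and 0.174 in control mice. All 3 anti-CD40 values were above the control values, and Abcb1b was called higher with a log2 fold change of 1.1 (SE 0.31, limma adjusted p = 0.0143). Its log2 fold change was 0.44 with an added constant of 1 and 1.32 with one of 0.01. Its limma adjusted p was 0.0570 when anti-CD40 mouse 5 was left out and 0.0521 under quantile normalization. The FPKM of Abcb1b fit 62 to 82 reads with anti-CD40 and 13 to 53 without it. The difference in response between Abcb1b and Abcb1a was 1.05 (interval 0.22 to 1.9, exact permutation p = 0.0476, adjusted p = 0.143 over the 6 pairs). The copies are close in sequence, as are the Slco1a genes, and how reads that match both were counted is not given in the sources used here.

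Of 21 other uptake transporters listed, 19 were tested, of which 9 were called lower and 3 higher, with a median log2 fold change of -0.44. Slc10a1, the sodium-dependent bile acid carrier NTCP, fell from 71.2 to 92.8 FPKM in control mice to 13.5 to 17.6 after anti-CD40 (log2 fold change -2.38, SE 0.13). Slc22a7, the organic anion carrier OAT2, fell by 2.29 (SE 0.53) and Slc29a1, the nucleoside carrier ENT1 through which gemcitabine enters cells, fell by 1.69 (SE 0.27) on the log2 scale. Not every OATP gene was lower. Slco3a1 rose from 1.92 to 2.31 FPKM in control mice to 9.11 to 9.79 (log2 fold change 2.09, SE 0.11), and Slco2a1, the prostaglandin carrier, was at -0.18 (SE 0.24, limma adjusted p = 0.561). The other higher genes were Slco4a1 (1.42) and Slc28a2 (1.60), named after their values were seen. Slco4a1 lay at 0.0334 to 0.360 FPKM, and its value ran from 0.33 with an added constant of 1 to 2.26 with one of 0.01. Slco1a5 was at the floor in all 9 mice and Slco1a6 in 6, so neither was tested. The calls named held in each alternative in which the gene was tested, 20 for each but Slco4a1, which was tested in 19.

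Of 21 other efflux transporters, 18 were tested, of which 8 were called lower and 6 higher, with a median of -0.26. The lower ones included Abcb11, the canalicular bile salt export pump (59.4 ± 8.90 FPKM in 6 control and 22.5 ± 2.43 in 3 anti-CD40 mice, SD, log2 fold change -1.39), and Slc47a1, the cation exporter MATE1 (log2 fold change -2.37, SE 0.21). Abca8a fell by 2.56 on the log2 scale (SE 0.23). The higher ones included 2 relatives of the efflux genes above, Abcc1 (MRP1, log2 fold change 1.78, SE 0.24) and Abcc5 (MRP5, log2 fold change 1.37, SE 0.19), and Slc51b, a subunit of the basolateral bile acid exporter (log2 fold change 1.80, SE 0.61). The value of Abcc1 ran from 0.72 with an added constant of 1 to 2.13 with one of 0.01. Slc51b lost its call when any 1 of anti-CD40 mice 2, 5, and 9 or of control mice 7 and 11 was left out (limma adjusted p from 0.0553 to 0.157) and with no filter (limma adjusted p = 0.114). Its partner Slc51a was above the floor in 1 of 9 mice and was not tested. Abcb4, the canalicular phospholipid exporter, was at -0.09 (SE 0.26, limma adjusted p = 0.809), a value whose sign changed with scaling. The canalicular cholesterol exporter genes Abcg5 (-1.98) and Abcg8 (-2.37), named after their values were seen, were also lower.

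Of 18 receptors and regulators of these genes, 5 were called lower and 1 higher. Nr1i3, which encodes the drug-sensing receptor CAR, fell from 16.8 to 39.4 FPKM in control mice to 3.77 to 10.9 (log2 fold change -2.38, SE 0.35, limma adjusted p = 3.40e-04). Rxra, the partner of CAR, PXR, and FXR, fell by 0.74 (SE 0.22) on the log2 scale. The receptors PXR (Nr1i2, -0.61, limma adjusted p = 0.0579), FXR (Nr1h4, -0.06, limma adjusted p = 0.765), and AHR (Ahr, -0.25, limma adjusted p = 0.206) were not called, nor was Hnf4a (-0.44, limma adjusted p = 0.139). Nfe2l2, the antioxidant regulator NRF2, rose by 0.80 (SE 0.25) on the log2 scale. Cebpa (-1.49) and Nr3c1 (-0.49) were also lower and were named after their values were seen. Nr3c1 was called under only 15 of 20 alternatives. Among others, it lost its call when anti-CD40 mouse 2, 5, or 9 was left out (limma adjusted p of 0.0553 to 0.0749). The same held after leaving out the Saa genes (limma adjusted p = 0.559). Rxra lost its call when anti-CD40 mouse 2 (limma adjusted p = 0.0796) or 9 (0.0524) was left out, under quantile normalization, after leaving out the Saa genes, and with no filter. Nfe2l2 lost its call when anti-CD40 mouse 2 (limma adjusted p = 0.115) or 5 (0.0724) was left out and with no filter.

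Of 17 target genes of these receptors, 7 were called lower and 3 higher. Cyp3a11, the classic PXR target, fell from 543 to 1554 FPKM in control mice to 158 to 273 (log2 fold change -2.25, SE 0.34), and Cyp2b10, the classic CAR target, fell by 2.22 (SE 0.31). Cyp1a2 fell by 3.98 (SE 0.32) and Fgf21 rose by 3.62 (SE 0.88). Of the NRF2 targets named, Hmox1 rose by 1.35 (SE 0.20) and Srxn1, named after its values were seen, by 0.92, whereas Nqo1 (-0.42, limma adjusted p = 0.0662) and Gclc (-0.16, limma adjusted p = 0.455) were not called. Gstm1, also named after its values were seen, fell by 1.24 (SE 0.28, limma adjusted p = 0.00466). Gclm (-0.21, limma adjusted p = 0.318) and Txnrd1 (0.14, limma adjusted p = 0.414) were not called. Of 10 genes for membrane scaffolds and traffic, 4 were called lower and 3 higher. Rdx, the ezrin family member that holds MRP2 at the canalicular membrane, fell by 0.99 (SE 0.17), Slc9a3r1 by 0.82 (SE 0.13), and Pdzk1 by 0.59 (SE 0.18) on the log2 scale. Ezr rose by 1.51 (SE 0.37) and Msn by 1.95 (SE 0.26). Which cells of the bulk liver carried these changes was not tested, so they are not read as changes at the canalicular membrane. Cgn (-0.70) and Tjp1 (0.59), named after their values were seen, completed the calls. Cgn lost its call after leaving out the Saa genes. Tjp1 was called under only 11 of 20 alternatives. Among others, it lost its call when any 1 of 7 mice was left out (limma adjusted p of 0.0526 to 0.161 without anti-CD40 mouse 2, 5, or 9 or control mouse 3, 8, 11, or 12). Pdzk1 lost its call when anti-CD40 mouse 2 (limma adjusted p = 0.0836) or 5 (0.0832) was left out, with no filter, and after leaving out the Saa genes.

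Markers of liver cell types moved with the groups. The hepatocyte list had a summed FPKM of 13843 to 16781 after anti-CD40 and 26384 to 48362 in control mice. This sum leaves out transferrin, which was listed as Tf but is named Trf in these data. Trf alone had 14414 to 15836 FPKM after anti-CD40 and 6363 to 14525 in control mice. Of the 14 genes of the list that were tested, 11 were called lower and 2 higher. Alb fell from 4063 to 6626 FPKM in control mice to 774 to 1075 (log2 fold change -2.43, SE 0.18) and Cyp2e1 fell by 2.49 (SE 0.34), while Fgb rose by 0.88 (SE 0.22) and Apob, named after its values were seen, by 0.74. Apob was called under 18 of 20 alternatives and Fgb under 19 of 20, with a highest limma adjusted p of 0.0894 and 0.0618. When anti-CD40 mouse 5 was left out, Apob was among the calls lost (limma adjusted p = 0.0699). All 6 neutrophil markers were called higher, with a summed FPKM of 4204 to 5185 against 18.1 to 152, as were 6 of 7 monocyte markers (289 to 406 against 24.6 to 61.6), and 6 of 7 T and NK cell markers (10.9 to 16.5 against 2.23 to 4.18). All 7 Kupffer cell markers were called lower (90.9 to 101 against 423 to 664). Of 7 cholangiocyte markers, 3 were called higher (69.9 to 101 against 10.8 to 19.7), among them Sox9 (48.5 to 64.8 FPKM against 3.17 to 8.23) and Spp1 (15.6 to 31.8 against 2.37 to 8.28). The defining markers Krt7, Krt19, and Epcam were not called (limma adjusted p = 0.671, 0.235, and 0.384). These cholangiocyte markers other than Sox9 were named after their values were seen. Of 10 endothelial markers, 2 were called higher and 4 lower (97.7 to 109 against 110 to 137). No erythroid marker was called (4176 to 14320 against 7494 to 50532), and 2 of 6 platelet markers were called higher (23.1 to 30.0 against 11.4 to 42.9). The part of cell makeup in the transporter values was not tested. Control mouse 4 had the highest summed neutrophil and erythroid markers of the control mice. The highest summed pancreas markers of all mice were in anti-CD40 mouse 5. Without both mice, the log2 fold changes were -4.61 for Slco1a1, -2.82 for Slco1a4, -1.53 for Slco2b1, and -0.54 for Slco1b2 (limma adjusted p = 0.0583 for the last), and no efflux gene was called.

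The genes whose pattern over the 9 mice was most like that of Slco1b2, by Pearson r of log2(FPKM + 0.1), were Crygs (r = 0.975), Ttpa (r = 0.963), and Slc22a29 (r = 0.958). For Abcg2 they were Emc1 (r = 0.965), Neu1 (r = 0.959), and Sec63 (r = 0.951). These values describe 9 libraries that each pair of genes shares, and for Slco1b2 they include the difference between the groups. Log2(FPKM + 0.1) over the tested genes correlated at 0.970 to 0.978 between anti-CD40 mice, 0.953 to 0.980 between control mice, and 0.897 to 0.921 between groups, and the relative depth of the libraries lay between 0.870 and 1.13.

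The plot of alternative settings shows how far each of the 9 values moved.

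**Figure D4:**
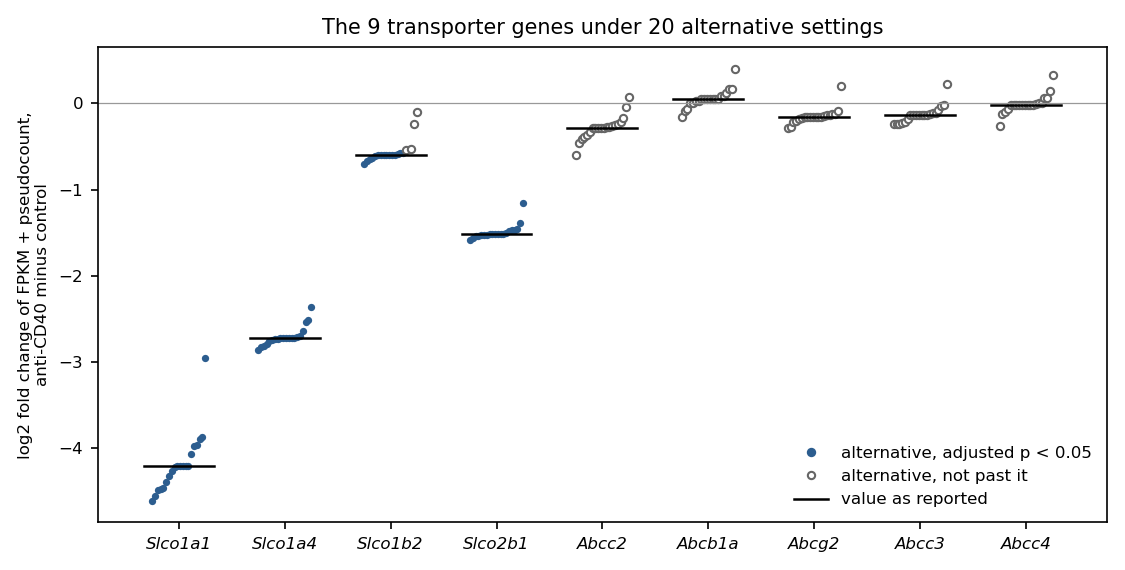
Log2 fold change, anti-CD40 minus control, of each of the 9 genes under 20 alternative settings, with filled points for an adjusted p under 0.05, open points otherwise, and a black line at the value as reported. Slco1a1, Slco1a4, and Slco2b1 stay filled throughout, 4 of the 20 points of Slco1b2 are open, and the efflux points are all open and lie on both sides of 0.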

How the data were processed

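RNA from the livers of 9 mice was made into QuantSeq 3′ libraries, sequenced on a NextSeq instrument. The authors aligned reads to mm10 with STAR and deposited FPKM values from Cufflinks, floored at 0.01 and marked FAIL where an estimate failed. The annotation and the treatment of reads matching several genes are not given in the sources used here. The 15 genes with a failed estimate were left out, leaving 24326. Genes averaging 0.1 FPKM or more (13807) were tested with limma 3.58.1 in R 4.3.3 (lmFit, eBayes with trend) on log2(FPKM + 0.1), 2-sided, with Benjamini-Hochberg adjustment over all of them at 0.05. The authors' CuffDiff test needs reads and was not rerun. Single genes and pairs were tested with exact permutation tests in scipy 1.17.1.

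Read totals are not given, so depth is known only relatively, from the steps between low values, and no interval that needs totals was computed. Of 3804 low genes, 62.4% were whole numbers of reads in every mouse (within 0.02 of a read or 0.0005 of the value, multiples up to 5), too few for a test on counts. The labels name no batch. The limma step was tested on simulated data. Listed positions were set to count from 1.

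The 9 genes and all lists were chosen with earlier results of these data known. Named genes were the 9, a set list of transporters, regulators, and targets, the extremes of each list, and the 3 genes of most like pattern for Slco1b2 and Abcg2. Alternatives were a pseudocount of 1 or 0.01, testing every gene or those averaging 1 FPKM or more, quantile normalization, scaling by median ratios, leaving out Saa1, Saa2, and Saa3 with rescaling, eBayes without trend or robust, array weights, an adjusted p under 0.01, and leaving out each mouse. Leaving out control mouse 4 and anti-CD40 mouse 5 together and the 20 uptake and efflux pairs were added after seeing the data. Some items of the lists are not reported here.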

Additional observations from a re-analysis of the deposited data

Results flagged for a closer look

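Among the 6 control mice, Hbb-bt, a beta globin gene of the erythroid list, had a highest value that stood apart. It was 14930 FPKM in control mouse 4, and its gap to the next mouse was 0.702 of the whole range of log2(FPKM + 0.1), above Dixon's 95% critical value for 6 samples. Chance flags about 1 in 20 groups, or about 3.05 of the 61 genes examined, and 1 was found. None of the 9 transporter genes was among them. The anti-CD40 group of 3 mice is too small for this check.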

How the results depend on the processing

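Over the settings tried, the uptake genes called lower numbered 3 or 4 and the efflux genes called in either direction 0. The genes called among all tested ran from 4384 at an adjusted p under 0.01 to 7377 with array weights. They numbered 4814 to 6830 when 1 mouse was left out and 7282 after leaving out the Saa genes. Slco1b2 was the uptake gene lost, also at an adjusted p under 0.01, and its limma log2 fold change ranged from -0.70 to -0.53 when 1 mouse was left out. Values that changed sign were all uncalled. Under quantile normalization these were Abcb1a (-0.16), Abcb4 (0.12), Gclc (0.090), and Nr1h4 (0.19). With the Saa genes left out they were Abcb4 (0.28), Abcc2 (0.079), Abcc3 (0.23), Abcc4 (0.33), Abcg2 (0.20), Ahr (0.11), Gclc (0.21), Nr1h4 (0.30), and Slco2a1 (0.18). Without control mouse 4 and anti-CD40 mouse 5, Abcc4 was at 0.15. Leaving out 1 mouse gave -0.091 to 0.17 for Abcb1a, -0.23 to 0.0062 for Abcb4, -0.13 to 0.064 for Abcc4, -0.086 to 0.52 for Abcc4 against Abcc2, and -0.090 to 0.30 for Abcc4 against Abcc3. With 2 anti-CD40 mice the exact permutation test cannot go below 0.0714. No paired analysis was possible because the groups share no replicate numbers. The causes of these changes were not tested.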

Other observations

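Slco1a1 varied 11.1-fold among the control mice, and the genes most like it over the 9 mice were, chosen after its values were seen, Hsd17b2 (Pearson r = 0.983), Amhr2 (r = 0.981), and Cyp2c67 (r = 0.980). Amhr2 lay at only 0.0518 to 0.277 FPKM, near the added constant of 0.1. Hsd17b2, a steroid dehydrogenase, had FPKM of 23.0, 27.2, and 27.9 in anti-CD40 mice 2, 5, and 9 and 61.0, 54.2, 98.1, 71.0, 91.9, and 93.4 in control mice 3, 4, 7, 8, 11, and 12. Slco1a1 is known to be higher in male than in female mouse liver. Hsd3b5 and Elovl3, a pair of genes with that known difference that were also chosen after their values were seen, varied among the control mice too. Hsd3b5 was at the floor of 0.01 in the anti-CD40 mice and ran from 0.0691 in control mouse 4 to 6.45 in control mouse 12. Elovl3 had FPKM of 0.162, 0.917, and 1.08 in the anti-CD40 mice and ran from 0.116 in control mouse 4 to 17.8 in control mouse 11. Mice 3 and 4 were the lowest control mice for Slco1a1, Hsd3b5, and Elovl3, and mice 11 and 12 the highest. The Y-linked genes Ddx3y, Eif2s3y, Kdm5d, and Uty were at the floor in all 9 mice, and Xist lay between 2.23 and 3.82 FPKM in all 9. By these genes all 9 mice, control mice included, read as female. The cause of the spread among the control mice was not tested.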
